A study of Mus musculus with 20 samples.

Results

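The 10 genes described here are or contain copies of protein-coding genes, and their read counts differed widely between 2 mouse lines. They were picked on those same differences, the values of FL1 against ctrl mice in estrus and in diestrus, and were matched by symbol to the 55487 genes counted in each sample. Of these, 8 carry the biotype processed pseudogene in the GENCODE M21 annotation, out of 9937 genes of that biotype in the count files. Gm14267 is annotated as a transcribed processed pseudogene. Gm10320 is annotated as protein coding, so for this gene the annotation goes against the name pseudogene, and it is called a copy here.

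A processed pseudogene arises when the spliced mRNA of a gene is reverse transcribed and inserted elsewhere in the genome. Such copies have no introns and usually lack the promoter of the parent gene, and genes of ribosomal proteins have left especially many of them. A read of 1 gene can match a copy as well as the parent, and a gene that differs in a mouse line from the reference genome can send its reads to the better matching place. Counts of a copy and of its parent may therefore come from the same RNA, genotypes of the mice were not analysed here, and the part of read assignment in the values was not tested.

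Granulosa cells (GCs), the somatic cells that line the ovarian follicle, were taken from the large antral follicles of 20 young adult mice, and each mouse gave 1 sample. FL1 mice come from a line selected over many generations for fertility. Ctrl mice come from an unselected line that was kept by rotational mating, and both lines descend from 1 founder population made by crossing inbred and outbred strains. No mouse carried a transgene or received a treatment. Each line had 5 mice in estrus and 5 in diestrus, judged by vaginal smear.

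The libraries read the 3′ end of polyadenylated RNA. Between 5446576 and 8257041 reads per mouse were counted on genes. Reads that matched several places were left out of these counts and made up 23.2% to 32.8% of all reads, with medians of 29.2% in ctrl and 26.8% in FL1 mice in estrus, and of 29.3% and 27.4% in diestrus. Levels are given as CPM, counts divided by the reads on genes and brought to a common library size, with library sizes scaled by the TMM method within each stage. Markers of GCs were present in every mouse, with Inha at 2762 CPM or more and Foxl2 at 259 CPM or more, while Amh was at 0 in 6 of 20 samples. The summed level of 7 oocyte and cumulus markers ran from 47.5 to 476 CPM and that of 5 immune markers from 3.21 to 79.2 CPM. Immune markers lay between 12.5 and 29.3 CPM in ctrl and between 25.8 and 79.2 CPM in FL1 mice in estrus, and their part in the line differences was not tested. The summed level of 6 theca and stroma markers ran from 147 to 1646 CPM, with Cyp17a1 up to 227, Col1a1 up to 388, Col3a1 up to 548 and Acta2 up to 1017 CPM, and of these 6 markers Insl3 was at 0 in 19 of 20 samples. The sum of 2 red cell markers ran from 37.3 to 1258 CPM and that of 3 endothelial markers from 9.86 to 80.5 CPM.

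Each copy was assigned to the protein-coding gene with the best match. The parent of 3 copies is Rpl32, a protein of the large ribosomal subunit. Of these, Gm4987 is at chrX:46455887-46456294 on the minus strand and differs from the 408 coding bases of Rpl32 by 20 substitutions. Rpl32l lies at chr10:20208490-20208888 on the plus strand, in an intron of Map7 on the same strand, and has 10 substitutions and 6 missing bases. AC169506.2 at chr17:74332008-74332529 on the minus strand holds only the first 271 coding bases, with 92.6% identity. All positions are on GRCm38.

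The remaining copies come from different parents. Gm46578 (chr17:3130158-3130512, minus strand, opposite to the intron of Scaf8 in which it lies) is a copy of Rpl34, also of the large subunit, with 23 substitutions, 5 extra bases and 1 missing base. Rpsa-ps10 (chr3:150072658-150073542, minus strand) copies Rpsa, a protein of the small subunit that is also known as a laminin receptor, with 6 substitutions in 885 bases. Gm14513 (chrX:11684002-11684124, minus strand) holds only the last 123 coding bases of Rps3 of the small subunit and has 6 substitutions. Gm11942 (chr4:32964888-32965232, plus strand) matches Gm10073, itself annotated as protein coding, with 8 and Rplp1, which encodes an acidic protein of the ribosomal stalk, with 9 substitutions in 345 bases. Gm8670 (chr16:48749400-48750448, minus strand, in an intron of Trat1) copies Twistnb, a subunit of RNA polymerase I, with 13 substitutions. Gm14267 (chr2:166500036-166522373, minus strand) contains a copy of Ppia, the prolyl isomerase cyclophilin A, with 45 substitutions, and Gm10320 (chr13:98489348-98492001, minus strand) contains a copy of Sec61b, a subunit of the protein channel of the endoplasmic reticulum, with 6.

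The end of the coding sequence is shown for 4 copies that run from nearly identical to clearly different from the parent, because it lies nearest to the part of the RNA that is read. Capitals mark the bases of the copy that differ from the parent. Sequences are from the GENCODE M21 transcripts on GRCm38, written 5′ to 3′. In the last 120 coding bases Gm4987 differs from Rpl32 (chr6:115805505-115808747, minus strand) at 4 bases.
Rpl32: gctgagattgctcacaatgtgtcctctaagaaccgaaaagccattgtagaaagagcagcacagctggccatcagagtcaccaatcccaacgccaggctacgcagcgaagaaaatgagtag
Gm4987: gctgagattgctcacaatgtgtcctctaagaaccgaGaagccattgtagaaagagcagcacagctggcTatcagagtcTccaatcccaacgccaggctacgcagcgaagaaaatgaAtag
Against Rpl34 (chr3:130726831-130730398, minus strand) Gm46578 has 8 substitutions and 4 extra bases in this stretch.
Rpl34: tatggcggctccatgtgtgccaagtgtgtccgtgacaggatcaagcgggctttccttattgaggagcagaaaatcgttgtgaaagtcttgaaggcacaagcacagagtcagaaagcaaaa
Gm46578: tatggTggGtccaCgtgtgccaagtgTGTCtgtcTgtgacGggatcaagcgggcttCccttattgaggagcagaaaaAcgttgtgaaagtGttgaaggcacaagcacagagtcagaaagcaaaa
Rpsa-ps10 has a single difference from Rpsa (chr9:120127689-120132369, plus strand).
Rpsa: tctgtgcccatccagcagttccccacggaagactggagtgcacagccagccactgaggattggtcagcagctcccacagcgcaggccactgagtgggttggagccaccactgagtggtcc
Rpsa-ps10: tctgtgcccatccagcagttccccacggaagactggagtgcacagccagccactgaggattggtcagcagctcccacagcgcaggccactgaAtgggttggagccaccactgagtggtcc
Gm11942 differs from Rplp1 (chr9:61913284-61914542, minus strand) at 5 bases.
Rplp1: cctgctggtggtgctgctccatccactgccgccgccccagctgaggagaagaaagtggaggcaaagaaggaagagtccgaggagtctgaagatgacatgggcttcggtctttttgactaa
Gm11942: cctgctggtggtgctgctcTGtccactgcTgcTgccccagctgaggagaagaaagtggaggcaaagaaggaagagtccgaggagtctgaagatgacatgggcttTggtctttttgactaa
None of the other copies matched its parent as closely as Rpsa-ps10, with 99.3% identity over the aligned bases.

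To see how far a read could be told apart, every stretch of 50 bases of a copy was looked up in the transcripts of all other genes. In Rpsa-ps10 74.6% of these windows occurred in Rpsa and only 17.7% in no other gene. By contrast 100% of the windows of Gm46578 and of Gm14513 occurred in no other gene. Gm10320 shared 37.9% of its windows with Sec61b, Gm8670 36.1% with Twistnb, Gm11942 29.4% with Rplp1, Rpl32l 19.4% and Gm4987 5.01% with Rpl32. With windows of 75 bases these 5 shares were 22.5%, 28.5%, 14.8%, 6.15% and 0%, and that of Rpsa-ps10 in Rpsa was 64.6%. On the side of the parents, 62.4% of the coding windows of Rpl32 but only 27.8% of those of Rpl34, 1.20% of those of Rpsa and 0% of those of Ppia occurred in no other gene. With windows of 75 bases these shares were 92.1%, 39.4%, 9.49% and 0%. The levels of Rpsa and Ppia are therefore uncertain, since most of their coding sequence is shared with 28 and 38 other genes.

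**Figure D1:**
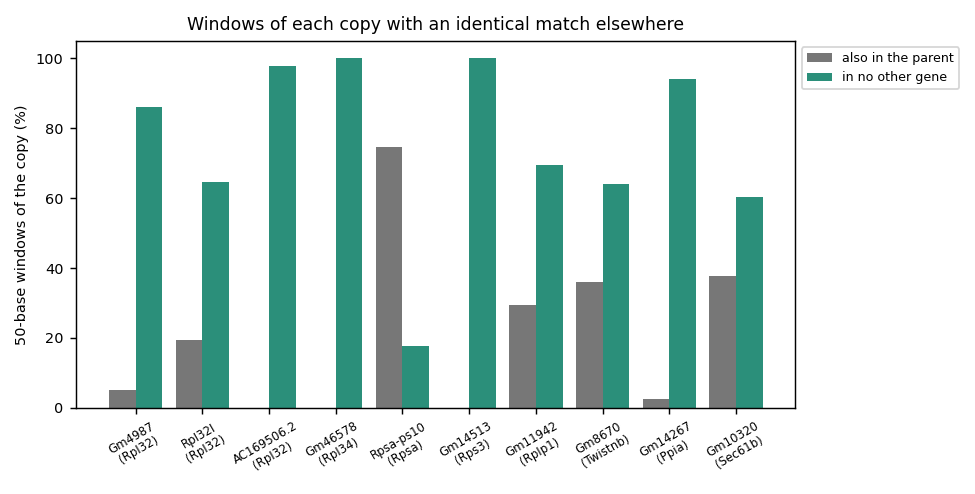
Bars give, for each copy (parent in brackets), the percentage of its 50-base windows that also occur in the parent (grey) and that occur in no other annotated gene (green). Rpsa-ps10 is the only copy with more windows in its parent (74.6%) than in no other gene (17.7%), while Gm46578 and Gm14513 reach 100% in the green bars.

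The line differences that chose the genes are given as a description. In estrus 8 of the 10 copies passed the filter on low counts and 4 were among the genes called at an adjusted p of 0.05 or less, against 0.769% of all 13007 genes tested. In diestrus 9 passed and 7 were called, against 0.248% of 12886 genes. In 6 of 10 copies the 5 ctrl and 5 FL1 mice did not overlap in estrus, and the number was also 6 in diestrus. Among the copies that passed the filter it was 5 of 8 in estrus and 5 of 9 in diestrus. Of all genes tested 3.55% and 1.56% showed no overlap. Since the copies were picked for these differences, the counts say nothing further about them. Nearest to the threshold among these selecting values were, on the inside, Gm8670 in estrus (edgeR adjusted p = 0.033) and Gm14513 in diestrus (0.034), and, on the outside, Rpsa-ps10 in estrus (0.053) and Gm11942 in diestrus (0.062).

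A higher mean level in FL1 mice in both stages was found for 4 copies, namely Gm4987, Rpl32l, AC169506.2 and Gm8670. The other 6 had a higher mean level in ctrl mice in both stages. No processed pseudogene other than these copies was called by edgeR with the filter on low counts. In estrus 0 of 249 tested were called (7 at an unadjusted p under 0.05, 6 called by DESeq2). In diestrus 0 of 253 were called (3 at an unadjusted p under 0.05, 3 called by DESeq2). The median log2 fold change of those genes was -0.14 in estrus and -0.08 in diestrus, beside 0.01 for all genes in each stage. Without the filter edgeR called 9 processed pseudogenes in estrus, of which at most 8 can be copies chosen here.

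**Figure D2:**
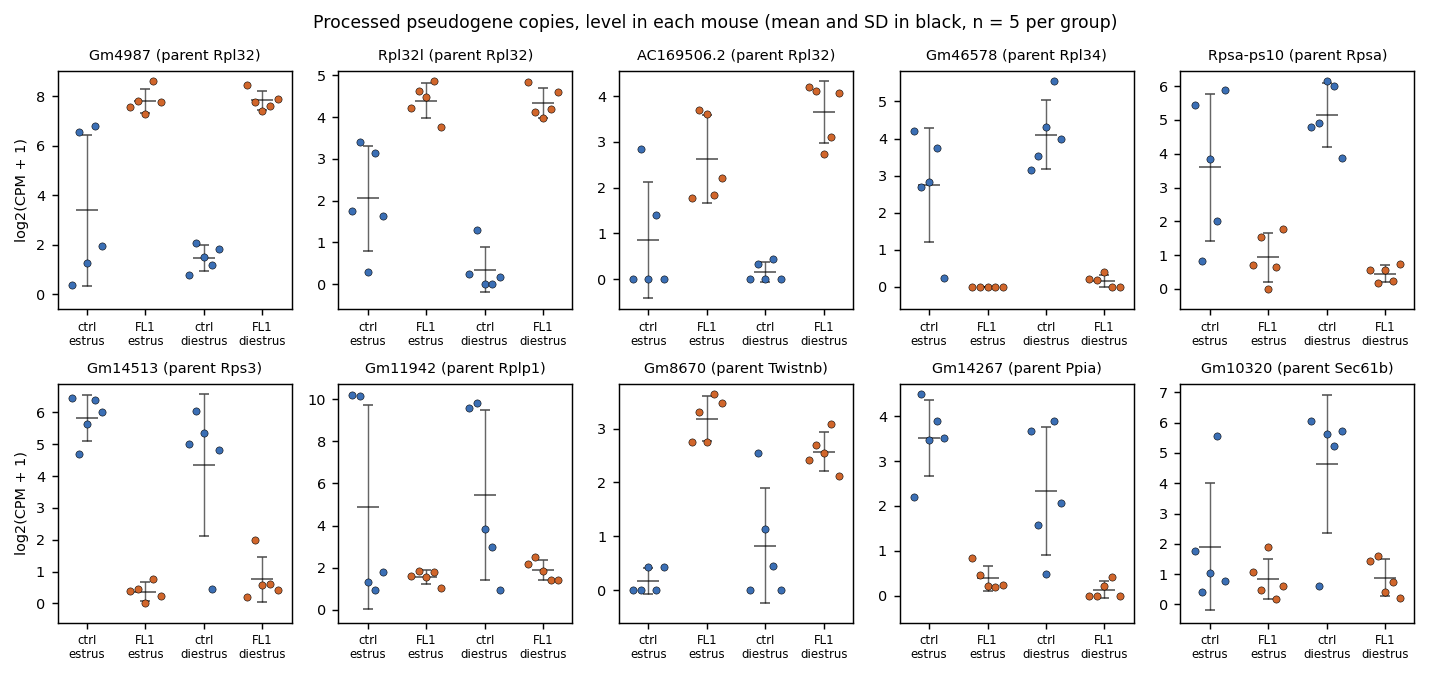
Each point is the level of a copy in 1 mouse as log2(CPM + 1), with blue for ctrl and orange for FL1, and black bars give the mean and SD of 5 mice. FL1 mice lie close together in most panels, while ctrl mice of 1 stage fall into high and low points for Gm4987 in estrus, for Gm11942 in both stages and for Gm10320.

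Gm4987 had high counts in all FL1 mice. FL1 mice in estrus had 189, 223, 157, 392 and 215 CPM (replicates 1 to 5) and FL1 mice in diestrus 352, 218, 170.5, 196 and 236 CPM. Ctrl mice in diestrus had 0.717, 3.27, 1.85, 1.25 and 2.52 CPM, a mean 122-fold below FL1 mice. In ctrl mice in estrus the values were 0.298, 93.0, 1.40, 111.6 and 2.82 CPM. Replicates 2 and 4 of this group thus stood between the other ctrl mice and the FL1 mice, and no ctrl mouse reached the range of the FL1 mice.

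The other copies of Rpl32 followed the same mice, although they lie on other chromosomes. Rpl32l had 9.63 and 7.82 CPM in ctrl estrus replicates 2 and 4, at most 2.38 CPM in the other ctrl mice and 12.6 to 28.0 CPM in FL1 mice. AC169506.2 had 6.16 and 1.65 CPM in these 2 ctrl mice, at most 0.357 CPM in the other 8 and 2.40 to 17.3 CPM in FL1 mice. So the same 2 ctrl mice were the highest of the ctrl line for all 3 copies. The 3 copies are similar in sequence to Rpl32 and were counted in the same mice, so they are not taken as independent. None of the 50-base windows of AC169506.2 occurred in Rpl32, and 97.9% occurred in no other gene.

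The parent gene Rpl32 was not used to choose the copies and was tested. Its reads and those of the copies may come from the same RNA, so this test may not be free of the choice. The level counted on Rpl32 was lower in FL1 mice in both stages. Ctrl mice in estrus had 1432, 895, 1487, 954 and 2114 CPM and FL1 mice 364, 253, 259, 209.6 and 301 CPM. In diestrus the values were 1287, 1521, 1679, 1947 and 1204 CPM in ctrl and 644, 376, 239, 223 and 394 CPM in FL1 mice. The lines did not overlap in either stage. On the log2 scale Rpl32 fell by 2.31 ± 0.24 (SE, n = 5 per line, edgeR adjusted p = 4.4e-05) in estrus and by 2.03 ± 0.28 (edgeR adjusted p = 0.0019) in diestrus. Ctrl estrus replicates 2 and 4, in which the copies were high, had the lowest Rpl32 levels of the 10 ctrl mice.

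**Figure D3:**
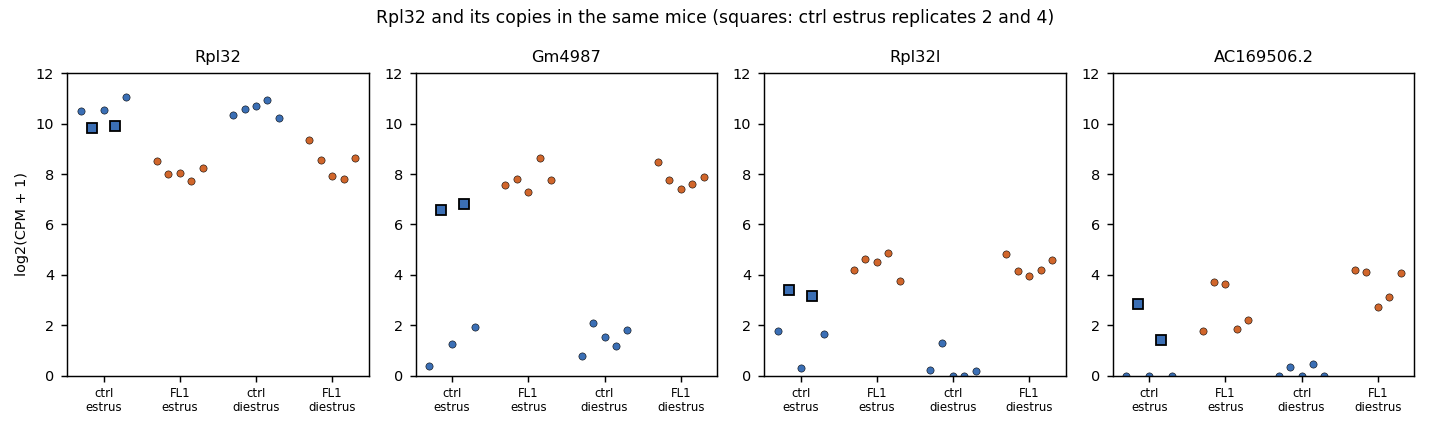
Panels show Rpl32 and its 3 copies as log2(CPM + 1), with 1 point per mouse, blue for ctrl and orange for FL1. The squares, ctrl estrus replicates 2 and 4, are the lowest ctrl points for Rpl32 (895 and 954 CPM) and the highest ctrl points for each copy.

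The rest of the Rpl32 family was compared as a sum of the parent and its further copies, without the 3 chosen ones. This sum was 1963 ± 539 CPM (SD, n = 5) in ctrl and 839 ± 109.3 CPM in FL1 mice in estrus, and 2129.7 ± 241 and 995 ± 96.3 CPM in diestrus. Both differences had p = 0.0079 in the two-sided exact permutation test, the smallest p that 5 against 5 mice allow, and an adjusted p of 0.042 over 16 tests of 8 families in both stages. In diestrus the adjusted exact permutation p rose to 0.063 when FL1 replicate 1, 2, 4 or 5 was left out. The log2 difference then lay between -1.14 and -1.06, beside -1.09 with all mice. This sum also held genes that share only a repeat with AC169506.2. The sum was then limited to genes matching the coding sequence of the parent, a definition chosen after seeing the data. It was 1378 ± 493 CPM in ctrl and 280.3 ± 60.1 CPM in FL1 mice in estrus, with the same exact permutation p. Rpl32 alone had means of 1376 and 277.6 CPM in these groups, so this sum adds little to the test of Rpl32. With the 3 copies added, the family came to a mean of 1426 CPM in ctrl and 543 CPM in FL1 mice in estrus, which is given as a description.

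Gm46578 and its parent Rpl34 took opposite levels in the same mice. No read of Gm46578 was counted in the 5 FL1 mice in estrus and at most 2 reads per mouse in diestrus. Ctrl mice had 17.4, 5.53, 6.16, 12.5 and 0.176 CPM in estrus, at least 18.3-fold more on average than FL1 mice if 3 counts per FL1 library are taken as the floor. Ctrl mice in diestrus had 7.88, 10.6, 18.8, 45.9 and 14.9 CPM. The only ctrl mouse near 0 was estrus replicate 5.

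Rpl34 had 67.1, 641, 59.0, 52.7 and 1511 CPM in ctrl mice in estrus and 494, 56.4, 59.1, 73.4 and 44.9 CPM in ctrl mice in diestrus. FL1 mice ranged from 709 to 1152 CPM in estrus and from 611 to 1683 CPM in diestrus. Rpl34 was thus at 73.4 CPM or less in 7 of 10 ctrl mice, while estrus replicate 5, the mouse with a single read of Gm46578, lay above every FL1 mouse of its stage. In estrus the log2 fold change of Rpl34 was 0.98 ± 0.69 (SE, edgeR adjusted p = 0.69). In diestrus it was 2.69 ± 0.59 (edgeR adjusted p = 0.095) and did not pass the threshold, although the lines did not overlap. Without ctrl diestrus replicate 1 it was 3.99 with an edgeR adjusted p of 1.3e-05, and DESeq2 gave an adjusted p of 0.034, within a range of 7.6e-07 to 0.24 over the alternatives of edgeR and DESeq2. The sum of Rpl34 and its other copies differed in diestrus with 170 ± 193 CPM (SD, n = 5) in ctrl and 955 ± 437 CPM in FL1 mice (exact permutation p = 0.0079, adjusted p = 0.042). Leaving out any of the 5 FL1 mice in diestrus brought this adjusted exact permutation p to between 0.063 and 0.085. The log2 difference then lay between 2.67 and 3.03, beside 2.90 with all mice. In estrus the exact permutation p was 0.12 (adjusted p = 0.32), and without ctrl replicate 5 the adjusted exact permutation p was 0.032.

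Rpsa-ps10 was present in most ctrl mice and near 0 in FL1 mice. Ctrl mice in diestrus had 26.5, 29.0, 70.0, 62.5 and 13.5 CPM and FL1 mice in diestrus 0.137 to 0.672 CPM. In estrus ctrl mice had 42.4, 0.790, 13.3, 3.01 and 57.7 CPM and FL1 mice 0 to 2.41 CPM. Ctrl estrus replicates 2 and 4, which were high for the Rpl32 copies, were the lowest ctrl mice for Rpsa-ps10.

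Rpsa had its highest ctrl levels in those same replicates. Ctrl mice in estrus had 81.2, 124, 45.2, 97.3 and 72.3 CPM and ctrl mice in diestrus 5.56, 58.5, 10.8, 19.6 and 38.1 CPM. FL1 mice ranged from 89.9 to 122 CPM in estrus and from 53.8 to 87.7 CPM in diestrus. The log2 fold change between the lines was 0.28 ± 0.24 (SE, edgeR adjusted p = 0.77) in estrus and 1.46 ± 0.46 (edgeR adjusted p = 0.48) in diestrus. Without the filter on low counts Rpsa was called in diestrus (1.45, edgeR adjusted p = 0.021), and the range over the alternatives was 0.021 to 0.81. As a description, Rpsa, its copies and Rpsa-ps10 summed to 80.3 CPM in ctrl and 81.3 CPM in FL1 mice in diestrus, and to 121 and 113.04 CPM in estrus. Such totals in diestrus, ctrl before FL1 mice, were 1533 and 645 CPM for Rpl32 and 190 and 956 CPM for Rpl34. They were 1961 and 2606 CPM for Rps3, and 1231 and 871 CPM for Gm10073 with Rplp1. For Twistnb, Ppia and Sec61b they were 79.1 and 75.5, 92.3 and 78.5, and 155 and 176 CPM.

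Gm14513 had counts far above those of the FL1 mice in 9 of 10 ctrl mice. Its level was 86.2, 24.6, 48.6, 82.0 and 63.7 CPM in ctrl mice in estrus and 31.2, 65.3, 40.1, 0.357 and 27.2 CPM in ctrl mice in diestrus, and no FL1 mouse exceeded 3.004 CPM. The ctrl mouse without it, diestrus replicate 4, had 3915 CPM of Rps3, the highest Rps3 level of the ctrl line. The other ctrl mice in diestrus had 830.4, 1188, 2037 and 1659 CPM of Rps3, and FL1 mice in this stage 1782 to 4182 CPM. In estrus ctrl mice had 1219, 2544, 2362, 1156 and 2999.6 CPM of Rps3 and FL1 mice 2019.6 to 2685 CPM. Ctrl estrus replicate 5 thus lay above every FL1 mouse of its stage while its Gm14513 level was 63.7 CPM. Rps3 did not pass the test between the lines, with a log2 fold change of 0.25 ± 0.24 (SE, edgeR adjusted p = 0.82) in estrus and 0.44 ± 0.35 (edgeR adjusted p = 1.0) in diestrus.

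Gm11942 divided the ctrl line. It had 1186 and 1145 CPM in ctrl estrus replicates 1 and 2, and 773 and 912 CPM in ctrl diestrus replicates 1 and 2. The other ctrl mice had 1.51, 0.903 and 2.47 CPM in estrus and 13.2, 6.96 and 0.930 CPM in diestrus, and FL1 mice 1.03 to 4.78 CPM. The mean difference between the lines, 234-fold in estrus and 119-fold in diestrus, thus rested on 4 of 10 ctrl mice, while 2 of the 3 other ctrl mice in estrus lay within the range of the FL1 mice. Equal replicate numbers in the stages are different mice.

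Rplp1 was lowest in the 4 ctrl mice with high Gm11942, at 562, 558, 556 and 509 CPM. The 6 other ctrl mice had 713 to 1483 CPM and FL1 mice 494 to 1490.0 CPM, and the FL1 mice with the lowest Rplp1, diestrus replicates 3 and 4, had 2.58 and 1.71 CPM of Gm11942. Between the lines Rplp1 had a log2 fold change of 0.16 ± 0.27 (SE, edgeR adjusted p = 0.92) in estrus and -0.03 ± 0.34 (edgeR adjusted p = 1.0) in diestrus. Gm10073, the best match by score, was at 9.88 CPM or less in every mouse and was not called either (edgeR adjusted p = 0.76 and 1.0).

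Gm10320 was high in 5 of 10 ctrl mice. Ctrl mice in diestrus had 64.9, 0.523, 48.8, 36.2 and 51.8 CPM, and in estrus only replicate 4 was high, with 45.9 CPM beside 2.38, 0.316, 1.05 and 0.706 CPM. FL1 mice had 0.143 to 2.71 CPM. Sec61b had 188, 177, 129, 95.7 and 263 CPM in ctrl mice in estrus and 119, 132, 96.2, 129 and 93.8 CPM in ctrl mice in diestrus. The lowest ctrl mouse in estrus was the one with high Gm10320, and the highest in diestrus the one with low Gm10320. FL1 mice had 85.7 to 262 CPM of Sec61b in estrus and 129 to 219 CPM in diestrus, and the lowest of all mice, FL1 estrus replicate 4, had 0.143 CPM of Gm10320. Its log2 fold change between the lines was 0.02 ± 0.28 (SE, edgeR adjusted p = 1.0) in estrus and 0.62 ± 0.20 (edgeR adjusted p = 0.49) in diestrus.

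**Figure D4:**
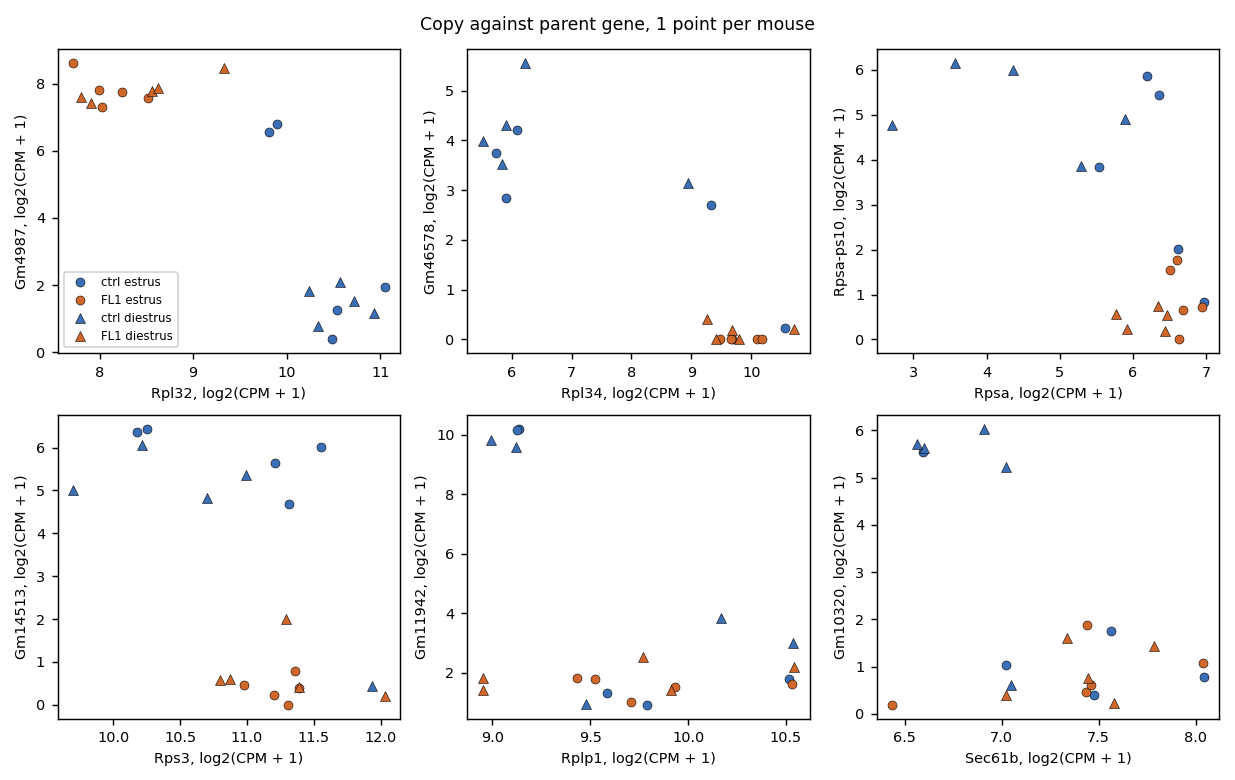
Each point is 1 mouse, with the parent gene on the horizontal and the copy on the vertical axis, both as log2(CPM + 1), circles for estrus, triangles for diestrus, blue for ctrl and orange for FL1. The ctrl mice with Gm46578 and with Gm14513 near 0 lie beside the FL1 mice at high parent levels for Rpl34 (1511 CPM) and Rps3 (3915 CPM), and the 4 ctrl mice with high Gm11942 have 509 to 562 CPM of Rplp1.

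Gm8670 and Gm14267 had low levels throughout. Gm8670 had 5.76, 8.89, 5.73, 11.4 and 10.2 CPM in FL1 mice in estrus and 3.36 to 7.52 CPM in FL1 mice in diestrus. In ctrl mice it was at 0.353 CPM or less in estrus, and in diestrus replicate 2 had 4.83 CPM while the others had 1.19 CPM or less. Its parent Twistnb showed log2 fold changes of -0.30 ± 0.27 (SE, edgeR adjusted p = 0.79) and -0.15 ± 0.20 (edgeR adjusted p = 1.0). Gm14267 had 3.57, 21.5, 10.1, 13.8 and 10.4 CPM in ctrl mice in estrus and 11.6, 1.96, 0.397, 13.7 and 3.19 CPM in diestrus, against 0.801 CPM or less in all FL1 mice. Ppia had 3.40 to 20.2 CPM over all mice and log2 fold changes of 0.21 ± 0.54 (SE, edgeR adjusted p = 0.95) and -0.04 ± 0.54 (edgeR adjusted p = 1.0).

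Of the 8 parents, edgeR with the filter on low counts called only Rpl32 in either stage. In diestrus DESeq2 also called Rpl34, the replicate block called Rpl34 (edgeR adjusted p = 0.0042), and the unfiltered fit called Rpl34 and Rpsa. The sums of the Rps3, Rpsa, Gm10073 with Rplp1, Twistnb, Ppia and Sec61b families without the copies did not pass the test in either stage. The lowest exact permutation p was 0.024 (adjusted p = 0.095) for Sec61b in diestrus. The Twistnb sum held Twistnb alone, and the Sec61b sum was nearly all Sec61b. In ctrl mice in estrus the Ppia sum was 73.6 CPM, of which 56.9 CPM came from Gclm and 8.46 CPM from Ppia. Rps3 was summed with genes such as Btbd7, Ccdc127 and Senp5 that do not match its coding sequence. Without FL1 diestrus replicate 3 the adjusted exact permutation p for Sec61b was 0.042. Among the 82 cytosolic ribosomal protein genes, to which Rpl32, Rpl34, Rpsa, Rps3 and Rplp1 belong, 78 were tested, and 4 fell in estrus and 5 in diestrus in FL1 mice, with none higher. These are 5.13% and 6.41% of the 78 genes tested, beside 0.769% and 0.248% of all genes tested. Their median log2 fold change was -0.27 in estrus and -0.24 in diestrus, beside 0.01 over all genes tested in each stage. Map7, the host gene of Rpl32l, had 28.0 to 44.3 CPM in ctrl and 11.2 to 26.9 CPM in FL1 mice in estrus, with a log2 fold change of -1.04 ± 0.32 (SE, edgeR adjusted p = 0.16) and a DESeq2 adjusted p of 0.046. In diestrus its mean was 31.5 CPM in ctrl and 25.04 CPM in FL1 mice, and its part in the level of Rpl32l was not tested.

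The spread between mice of a line was far wider in ctrl than in FL1 mice for most copies. For Gm11942 the SD of log2(CPM + 1), with each stage centred on its mean, was 4.46 in ctrl and 0.41 in FL1 mice. For Gm4987 it was 2.20 and 0.45, for Gm10320 2.19 and 0.64, for Rpsa-ps10 1.67 and 0.53 and for Gm14513 1.66 and 0.54. The median of 12270 genes tested in both stages was 0.55 in each line. Only 0.0733% of these genes spread as widely in ctrl mice as Gm10320. Copies near 0 in FL1 mice have little room to spread on this scale. Of the 4 copies with the higher level in FL1 mice, Gm4987, Rpl32l and Gm8670 had SDs of 0.45, 0.39 and 0.39 there and of 2.20, 0.97 and 0.77 in ctrl mice, while AC169506.2 had 0.83 in FL1 and 0.91 in ctrl mice.

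Rpl34 stood out among the parents, with an SD of 1.88 in ctrl and 0.46 in FL1 mice, and 0.147% of genes spread as widely in ctrl mice. Rpsa had 0.98 and 0.25 and Rps3 0.75 and 0.37. Rpl32, which was called between the lines in both stages, spread no more than the median gene, with 0.41 in ctrl and 0.49 in FL1 mice.

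**Figure D5:**
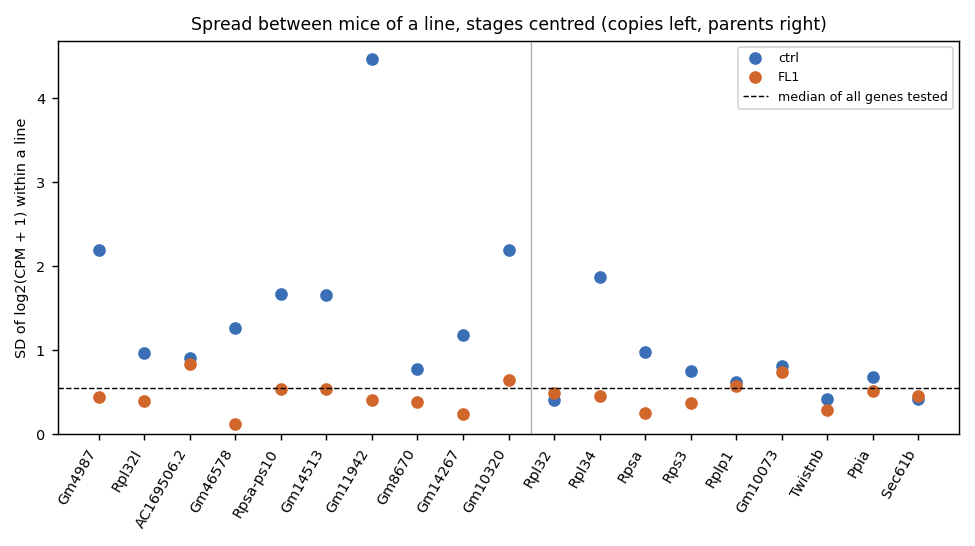
Points give the SD of log2(CPM + 1) between mice of a line with stages centred, for the 10 copies (left) and their parents (right), and the dashed line is the median of all genes tested (0.55). Gm11942 (4.46), Gm4987 (2.20) and Gm10320 (2.19) lead among the ctrl values and Rpl34 (1.88) among the parents.

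Which ctrl mice resembled the FL1 mice differed between copies, although some mice recurred. For the Rpl32 copies the nearest were estrus replicates 2 and 4. The same mice were the nearest for Rpsa-ps10, with 0.790 and 3.01 CPM. For Gm46578 it was estrus replicate 5, for Gm14513 diestrus replicate 4, for Gm8670 diestrus replicate 2 and for Gm14267 diestrus replicate 3. For Gm11942 the 6 ctrl mice numbered 3 to 5 in either stage were low, and for Gm10320 4 mice in estrus and 1 in diestrus. No ctrl mouse was therefore the nearest to the FL1 mice for all copies.

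The stage of the cycle was compared within each line, a contrast that did not choose the copies but shares their samples. In ctrl mice 8 of 10 copies passed the filter and none was called by edgeR, against 1.36% of 12850 genes tested. Of these, 2 had an unadjusted p under 0.05, and DESeq2 called 1. In FL1 mice 5 passed and 0 were called, against 0.221% of 13114 genes, with 0 at an unadjusted p under 0.05 and 0 called by DESeq2. The largest difference was that of Gm4987 in ctrl mice, with a log2 difference of diestrus against estrus of -4.37 ± 1.16 (SE, edgeR adjusted p = 0.082), where ctrl estrus replicates 2 and 4 were the high mice. DESeq2 gave an adjusted p of 0.023 for it and edgeR without ctrl estrus replicate 1 gave 0.031, within a range of 3.4e-05 to 0.54 over the alternatives. For Rpl32l in ctrl mice the log2 difference was -3.53 ± 1.46 (SE, edgeR adjusted p = 0.33). The edgeR fit of all samples together called both genes in ctrl mice (Gm4987 adjusted p = 0.016, Rpl32l -3.48, adjusted p = 0.037). In FL1 mice Gm4987 differed by 0.02 ± 0.26 (edgeR adjusted p = 0.99) and Rpl32l by -0.03 ± 0.34 (edgeR adjusted p = 0.99).

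Gm10320 was higher in ctrl mice in diestrus by 2.03 ± 1.09 (SE, edgeR adjusted p = 0.52), and without ctrl estrus replicate 4 by 5.18 (edgeR adjusted p = 0.019, range over the alternatives up to 0.71). Of the parents, Rpsa had a log2 difference of -1.62 ± 0.48 (SE, edgeR adjusted p = 0.13) in ctrl mice and -0.45 ± 0.21 (edgeR adjusted p = 0.51) in FL1 mice, and Rpl34 -1.65 ± 0.88 (edgeR adjusted p = 0.52) in ctrl mice. Without ctrl diestrus replicate 2 Rpsa was called in ctrl mice, at -2.13 with an edgeR adjusted p of 0.027 (range over the alternatives 0.0021 to 0.28). The interaction of line and stage called 0% of 14938 genes, with 710 genes at an unadjusted p under 0.05 and 1 gene called by DESeq2. None of the parents was called in it. The lowest unadjusted p among them was that of Rpsa, with an interaction of 1.17 ± 0.54 (SE, edgeR adjusted p = 1.0).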

How the data were processed

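GCs of 20 mice were measured by 3′ mRNA sequencing. The authors aligned the reads with STAR to GRCm38 and deposited raw counts per Ensembl gene. Reads with several matches are a separate row and entered no count, and read length and the strand setting of the counting are not given in the sources used here. Rows that name no gene (unmapped, multimapping, no feature, ambiguous) were left out. All samples were grouped by line and stage from the labels. The members and lists were chosen with earlier results of these data known.

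Of 55487 gene identifiers 55227 were found in GENCODE M21. Counts were tested in R 4.3.3 with edgeR 4.0.16 (TMM, filterByExpr with a minimum count of 10, a total of 15 and a share of 0.7, quasi-likelihood F test, Benjamini-Hochberg over all genes, threshold 0.05). The SE of a log2 fold change is its size divided by the square root of F. Lines were compared within a stage, stages within a line, and the interaction over all samples. Parents were found with BLAST 2.17.0 among GENCODE transcripts, and copies of a family are genes with at least 90% identity over at least 100 bases to a chosen copy or to the last 500 bases of the parent. Family sums were compared as log2(CPM + 1) by an exact permutation test. Windows of 50 bases (alternative 75) were compared in Python 3.11.15. Named are the chosen copies, their parents, host genes and up to 4 further copies per family with a mean of 10 counts or more. None of these further copies was called. Up to 3 other processed pseudogenes per direction called by edgeR with the filter were to be named, and there were none. Rplp1 is named as next best match of Gm11942.

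Alternatives were DESeq2 1.42.0, RLE factors, no filter, the replicate number as a block, all samples in one fit and leaving out each sample. For the sums they were unscaled libraries, 95% identity, a pseudocount of 0.1 and, chosen after seeing the data, copies matched in the coding sequence. The tests were tried on simulated data. Total counts limit precision, since 1 read is worth 0.116 to 0.179 CPM.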

Additional observations from a re-analysis of the deposited data

Results flagged for a closer look

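In 9 of 71 groups of 5 mice tested for a member or a parent, the highest or lowest mouse lay farther from its neighbour than the 95% critical gap (0.71 of the range), and chance flags about 1 in 20 groups. Of these values 5 were ctrl mice standing above their group for a copy. They were Gm10320 in ctrl estrus replicate 4 (45.9 CPM, next 2.38), AC169506.2 in ctrl estrus replicate 2 (6.16 CPM, next 1.65), Gm8670 in ctrl diestrus replicate 2 (4.83 CPM, next 1.19), Rpl32l in the same mouse (1.44 CPM, next 0.179) and Gm46578 in ctrl diestrus replicate 4 (45.9 CPM, next 18.8). In FL1 mice the values were Gm4987 in estrus replicate 4 (392 CPM, next 223) and Gm14513 in diestrus replicate 2 (3.004 CPM, next 0.513). Among the parents Rpl34 stood apart in ctrl diestrus replicate 1 (494 CPM, next 73.4) and in FL1 diestrus replicate 1 (1683 CPM, next 891). The cause of these values was not tested.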

How the results depend on the processing

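Size factors by RLE left all counts of calls within 1.5 times of the values given. Between the lines DESeq2 called 425 genes in estrus instead of 100 (2.70% of those tested instead of 0.769%) and 118 in diestrus instead of 32 (0.722% instead of 0.248%). Without the filter on low counts edgeR called 373 in estrus (1.55%) and, in diestrus, 55 higher and 52 lower in FL1 mice (0.439%). Between the stages DESeq2 called 526 genes in ctrl mice instead of 175 (3.42%) and 265 in FL1 mice instead of 29 (1.74%), the unfiltered fit 348 (1.45%) and 299 (1.23%), and the fit of all samples together 65 in FL1 mice (0.496%). For the interaction 1 gene (0.00383%) was called by DESeq2 and 6 (0.0223%) without the filter instead of 0. Processed pseudogenes called in estrus were 12 by DESeq2 and 9 without the filter instead of 3, and 10 by DESeq2 in diestrus instead of 6. Ribosomal protein genes called were 7 by DESeq2 and 8 without the filter instead of 4 in estrus, and 8 by both instead of 5 in diestrus. Replicate numbers are those of the labels and name different mice. Deviations of same-numbered mice correlated between -0.14 and 0.13, so the numbers do not pair them. With the replicate number as a block 58 genes were called in estrus (0.446%), 13 in diestrus (0.101%), 1 processed pseudogene in estrus and 2 ribosomal protein genes in diestrus. Leaving out each sample in turn gave 66 (without FL1 replicate 1) to 130 calls in estrus (0.490% to 0.966%), 21 (without FL1 replicate 4) to 32 in diestrus (0.158% to 0.237%), and 0 for the interaction. Between stages it gave 77 (without ctrl diestrus replicate 5) to 176 in ctrl mice (0.583% to 1.31%) and 13 (without FL1 diestrus replicate 3) to 178 (without FL1 diestrus replicate 1) in FL1 mice (0.0958% to 1.31%). Processed pseudogenes called were then 1 to 4 in estrus (1 without FL1 replicate 1, 2, 3 or 5) and 5 to 7 in diestrus, ribosomal protein genes 3 to 5 and 3 to 6, and family sums 1 to 2 in estrus and 0 to 2 in diestrus. No called log2 fold change of a copy, parent or sum changed its sign under any alternative run. The cause of these shifts was not tested. Shallow counts limit Gm8670, Gm14267, AC169506.2, Rpl32l and Gm46578, with at most 257 reads in a sample.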
